A study of Homo sapiens with 8 samples.

Results

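The genes described here are the 10 that unmodified brazilin and acetylated brazilin moved in opposite directions in MDA-MB-231, a widely used human cell line of triple-negative breast cancer. They were chosen by the sign of the log2 ratio of the mean FPKM (fragments mapped to a transcript, scaled for its length and for library size) of treated over untreated cells, in the tables that list the authors' significant genes for each compound. Of the 84 genes that both tables list, 10 had opposite signs (11.9%), and these 10 are all of the genes that meet the rule. The whole series lists 2998 genes for at least 1 compound. RELN, TFPI2, RGS2, RGS4 and ATP5MK were higher with brazilin and lower with acetylated brazilin, while SLC22A18, SLC22A31, SEL1L3, CCDC163 and TMEM8B were lower with brazilin and higher with acetylated brazilin. Because both contrasts chose the genes, their directions and fold changes are a description and carry no test.

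Brazilin is a phenolic compound of sappanwood, and acetylation replaces the hydrogen of a hydroxyl group with an acetyl group. The labels do not say which hydroxyl groups were acetylated. The study held 8 samples in 4 groups of 2, namely untreated cells, cells with unmodified brazilin, cells with acetylated brazilin and cells with methylated brazilin. Both compounds compared here were present at 20 µM for 48 h, added at seeding and refreshed each day, so dose and time matched. The untreated cells had 48 h of culture with no treatment, and a solvent control is not named in the labels. The labels leave unstated whether the samples of each treatment were grown as separate cultures.

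The deposited tables hold, for each listed gene, the mean FPKM of a group, a log2 fold change of treated over untreated cells and a q-value. Without a value per sample or a read total, depth is unknown and the spread of the 2 samples in a group cannot be shown. All fold changes, q-values and FPKM means given below come from the authors' deposited table of that compound. Each interval is a 95% interval around a deposited log2 fold change, derived from its q-value, and is at least as wide as the true one for a Wald test without shrinkage. Because every listed q-value is under 0.05, each such interval keeps the sign of its fold change by construction. With opposite signs, the interval of a difference between the compounds then keeps its sign too. The intervals are therefore no test of direction. Both comparisons use the same untreated samples, so an untreated mean that is too high or too low moves both fold changes of a gene the same way. Of 5 markers fixed for this line, FN1 and CD44 are listed, FN1 at 355.5 FPKM untreated and 119.155 FPKM with brazilin (log2 -1.67), and CD44 at 132.495 and 225.54 FPKM (log2 0.55). None of 6 luminal and epithelial markers is listed, which gives no value for them. ITGAM, 1 of 4 leukocyte markers, went from 0.055 to 0.385 FPKM with brazilin and PECAM1, 1 of 3 endothelial markers, from 1.345 to 0.905 FPKM, and the part of these 4 genes in the results was not tested. In bulk RNA, fewer cells that express a gene and less RNA per cell cannot be told apart. The brazilin table lists 2885 genes, 47.6% of them higher than in untreated cells and 52.4% lower, and 193 genes are listed for acetylated brazilin, 62.2% of them higher.

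The 10 genes belong to different pathways. RELN and TFPI2 encode secreted proteins, the first a large matrix glycoprotein that guides neurons through the lipoprotein receptors VLDLR and LRP8, the second a Kunitz-type inhibitor of plasmin and other serine proteases. RGS2 and RGS4 encode regulators of G protein signalling, which speed the hydrolysis of GTP by G protein alpha subunits and so shorten the signal of G protein-coupled receptors. ATP5MK encodes a small membrane subunit of mitochondrial ATP synthase, and SEL1L3 a relative of SEL1L, the adaptor of an ubiquitin ligase of the endoplasmic reticulum. SLC22A31 encodes a member of the organic ion transporter family. SLC22A18 carries a name of that family, although RefSeq lists it as SLC67A1. TMEM8B encodes a membrane protein, and CCDC163 a coiled-coil protein of little known function.

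**Figure D1:**
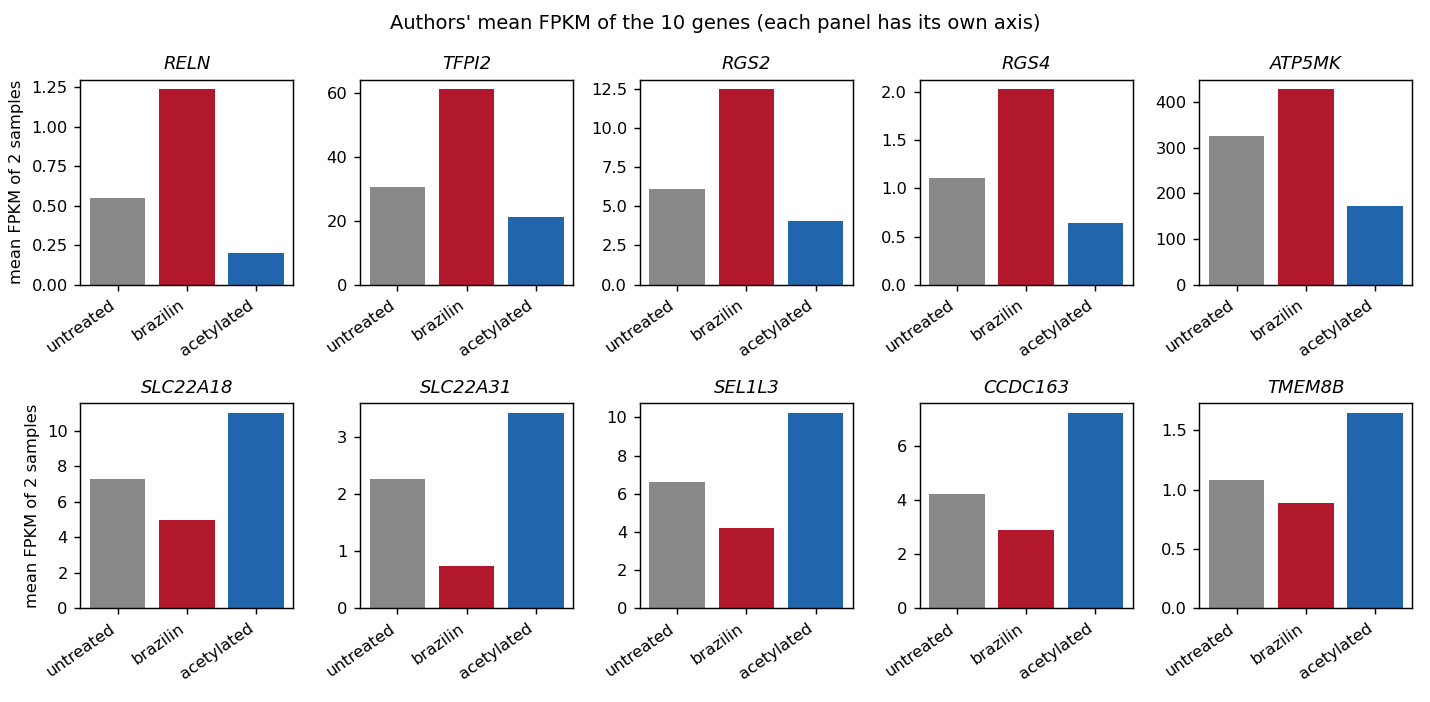
Bars give the authors' mean FPKM of the 2 samples of a group for each of the 10 genes, from 0, in untreated cells (grey), with brazilin (red) and with acetylated brazilin (blue), and each panel has its own axis. No error bars can be drawn because the tables hold no value per sample. In the upper row the brazilin bar is the tallest and the acetylated bar the shortest, as in RELN at 1.235 and 0.2 FPKM, and in the lower row the order is turned.

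RELN stood furthest apart between the compounds. Its mean was 0.545 FPKM in untreated cells, 1.235 FPKM with brazilin and 0.2 FPKM with acetylated brazilin. The mean with brazilin was thus 2.27-fold the untreated mean, the acetylated mean was 36.7% of it, and the compounds differed 6.18-fold. On the deposited log2 scale the changes were 1.08 with brazilin (interval 0.76 to 1.40, q = 6.2e-11) and -1.46 with acetylated brazilin (interval -1.95 to -0.97, q = 5.3e-09). Their difference was 2.54 (interval 1.95 to 3.13), and by the ratio of FPKM means this is the largest difference among the 84 genes in both tables. RELN was also the least abundant of the 10 genes in untreated cells, where its level exceeded that of 13.97% of the genes in the brazilin table.

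Of 20 other genes on a list of reelin receptors, adaptors and processing enzymes, 2 were in the brazilin table. VLDLR, a reelin receptor, went from 5.82 to 4.195 FPKM with brazilin (log2 -0.57, interval -0.73 to -0.40). FURIN, a protease that cleaves precursor proteins in the secretory pathway, went from 7.555 to 11.54 FPKM (log2 0.53, interval 0.36 to 0.70). None of the 20 was in the acetylated brazilin table. RELN lies on chromosome 7 from 103471789 to 103989658, on the minus strand, in RefSeq's GRCh38.p14 annotation. Its promoter is shown because the gene has the widest difference between the compounds. The stretch at chr7:103989609-103989908 is 83.3% G and C and holds 52 CpG dinucleotides. It is printed on the gene's strand, as are the other promoters, from RefSeq, and capitals mark matches to the motifs described further on.
RELN: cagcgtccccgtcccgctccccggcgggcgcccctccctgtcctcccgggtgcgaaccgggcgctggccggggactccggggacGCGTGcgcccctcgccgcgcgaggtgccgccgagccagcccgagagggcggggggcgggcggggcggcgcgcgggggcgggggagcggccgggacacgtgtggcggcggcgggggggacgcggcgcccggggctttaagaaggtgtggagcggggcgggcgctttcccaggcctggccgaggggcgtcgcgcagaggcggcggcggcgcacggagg

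TFPI2 had the most precisely measured changes among the genes that were higher with brazilin. Its mean was 30.48 FPKM in untreated cells, 61.02 FPKM with brazilin and 21.06 FPKM with acetylated brazilin. Brazilin gave 2.00-fold the untreated level and acetylated brazilin 69.1% of it. Log2 fold changes in the deposited tables were 0.91 (interval 0.77 to 1.05, q = 1.0e-38) and -0.54 (interval -0.70 to -0.39, q = 1.3e-11), a difference of 1.46 (interval 1.25 to 1.66). The level of TFPI2 in untreated cells was above that of 81.8% of the brazilin table's genes.

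Genes around TFPI2 in coagulation and plasmin control moved with brazilin in both directions. On a list of 24 other Kunitz inhibitors and genes of the tissue factor and plasmin systems, 8 were in the brazilin table, 2 of them higher and 6 lower, and none was in the acetylated brazilin table. SERPINB2, an inhibitor of urokinase, went from 0.835 to 12.105 FPKM (log2 3.77, interval 3.39 to 4.14), and F3, which encodes tissue factor, was at 53.815 FPKM untreated and 106.38 FPKM with brazilin (log2 0.89, interval 0.78 to 1.01). The other 6 were lower by 0.53 to 0.74 on the log2 scale, among them TFPI, the paralogue that inhibits the tissue factor pathway, from 58.72 to 45.445 FPKM, and APLP2, from 322.65 to 205 FPKM. TFPI2 thus differed in direction from its paralogue with brazilin. The median log2 fold change of these 8 was -0.54 with brazilin, against -0.51 over all genes of that table, 52.4% of which were lower.

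RGS2 and RGS4 moved together under both compounds. RGS2, which acts mainly on G alpha q, had means of 6.105 FPKM untreated, 12.475 FPKM with brazilin and 4.075 FPKM with acetylated brazilin. The means of RGS4, which acts on G alpha i and q, were 1.11 FPKM, 2.03 FPKM and 0.645 FPKM in the same order. In both genes the brazilin mean was the highest and the acetylated mean the lowest, 3.06-fold apart for RGS2 and 3.15-fold for RGS4. For RGS2 the deposited log2 fold changes were 0.94 with brazilin (interval 0.63 to 1.26, q = 2.7e-09) and -0.58 with acetylated brazilin (interval -1.07 to -0.10, q = 0.019). For RGS4 they were 0.80 (interval 0.33 to 1.26, q = 0.00088) and -0.79 (interval -1.56 to -0.02, q = 0.044). The acetylated fall of RGS4 therefore sits next to the q-value of 0.05 at which the table ends, and its interval nearly reaches 0. The differences between compounds were 1.53 for RGS2 (interval 0.95 to 2.11) and 1.59 for RGS4 (interval 0.69 to 2.49).

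Of 29 other genes with an RGS domain, 6 were in the brazilin table, 1 of them higher and 5 lower, where 52.4% of that table was lower, and none was in the acetylated brazilin table. The median log2 fold change of these 6 was -0.63, where the median size of change over the brazilin table was 0.73. No change under 0.5 in size is listed, so a mostly lower list has a median fall of at least 0.5. RGS7 was the other higher one, from 0.345 to 1 FPKM (log2 1.39, interval 0.52 to 2.25). AXIN2, a scaffold of the beta-catenin destruction complex, went from 8.175 to 4.98 FPKM, RGS9 from 2.315 to 1.41 FPKM and RGS5 from 0.67 to 0.44 FPKM, lower by 0.80, 0.76 and 0.70 on the log2 scale. RGS5 is also a neighbour of RGS4, 65497 bases away on the opposite strand, and had the opposite direction with brazilin. The sorting nexin genes SNX14 and SNX13 were lower by 0.53 and 0.56. Of 22 G alpha subunits and their effectors, 2 were listed with brazilin, ITPR2, an inositol trisphosphate receptor (4.25 to 3.085 FPKM), and PLCB2, a phospholipase C (0.085 to 0.31 FPKM), and none with acetylated brazilin.

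The promoters of RGS2 and RGS4 and that of TFPI2 are shown because these 3 genes have the most similar pair of fold changes among those higher with brazilin. RGS2 and TFPI2 were 0.05 apart over the pair of deposited log2 fold changes, and RGS4 was 0.25 from RGS2. The windows are chr1:192808789-192809088 on the plus strand for RGS2, chr1:163068621-163068920 on the plus strand for RGS4, which has 4 starts in the RefSeq table, and chr7:93890704-93891003 on the minus strand for TFPI2. They differ in base composition, with 69.7% G and C in RGS2, 65.3% in TFPI2 and 44.7% in RGS4, and with 32, 26 and 8 CpG dinucleotides.
RGS2: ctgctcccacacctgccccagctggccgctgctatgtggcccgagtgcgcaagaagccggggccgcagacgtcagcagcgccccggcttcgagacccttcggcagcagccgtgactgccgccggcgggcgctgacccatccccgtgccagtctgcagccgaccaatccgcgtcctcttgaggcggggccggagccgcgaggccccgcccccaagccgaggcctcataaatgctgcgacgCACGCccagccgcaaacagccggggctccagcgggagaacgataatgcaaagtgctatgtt
RGS4: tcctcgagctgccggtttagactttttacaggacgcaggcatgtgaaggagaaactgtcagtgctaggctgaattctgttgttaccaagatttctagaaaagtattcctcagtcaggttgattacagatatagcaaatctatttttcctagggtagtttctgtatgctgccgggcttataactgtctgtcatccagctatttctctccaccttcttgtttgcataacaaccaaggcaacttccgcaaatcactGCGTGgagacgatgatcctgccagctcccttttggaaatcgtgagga
TFPI2: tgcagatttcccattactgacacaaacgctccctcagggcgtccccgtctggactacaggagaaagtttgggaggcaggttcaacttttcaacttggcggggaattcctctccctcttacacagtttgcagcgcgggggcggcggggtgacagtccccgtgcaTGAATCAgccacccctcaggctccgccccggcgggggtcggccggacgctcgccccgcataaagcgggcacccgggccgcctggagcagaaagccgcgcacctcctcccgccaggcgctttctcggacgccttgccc

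ATP5MK was by far the most abundant of the 10 genes. Its mean was 326.53 FPKM in untreated cells, 427.51 FPKM with brazilin and 171.525 FPKM with acetylated brazilin. Brazilin gave 1.31-fold the untreated level and acetylated brazilin 52.5% of it. As log2 fold changes these were deposited as 0.51 (interval 0.35 to 0.67, q = 2.5e-10) and -0.63 (interval -0.82 to -0.45, q = 4.3e-11). Both lie further from the log2 ratios of the FPKM means, 0.39 and -0.93, than in the other genes of this direction. The ratio was 0.29 below the deposited value with acetylated brazilin, where the median over that table is 0.01 above it. The direction is the same by both measures, but its size with acetylated brazilin is -0.63 by the one and -0.93 by the other.

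The 2 other ATP synthase genes in the brazilin table were higher, as were 47.6% of all genes in that table. Of 23 other subunit and assembly genes, ATP5MF and ATP5MC1, both membrane subunits, were in the brazilin table, at 455.53 and 683.95 FPKM (log2 0.51, interval 0.35 to 0.67) and at 86.11 and 162.345 FPKM (log2 0.86, interval 0.69 to 1.03) in untreated and treated cells. In the acetylated brazilin table FMC1, an assembly factor, went the other way from ATP5MK, from 7.775 to 10.985 FPKM (log2 0.51, interval 0.02 to 1.00). The values of ATP5MK are uncertain for 2 reasons. Its coding sequence of 174 bases has a processed pseudogene that is 96.6% identical, and the gene overlaps TAF5 on the opposite strand, while the labels do not say whether the libraries kept strand.

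**Figure D2:**
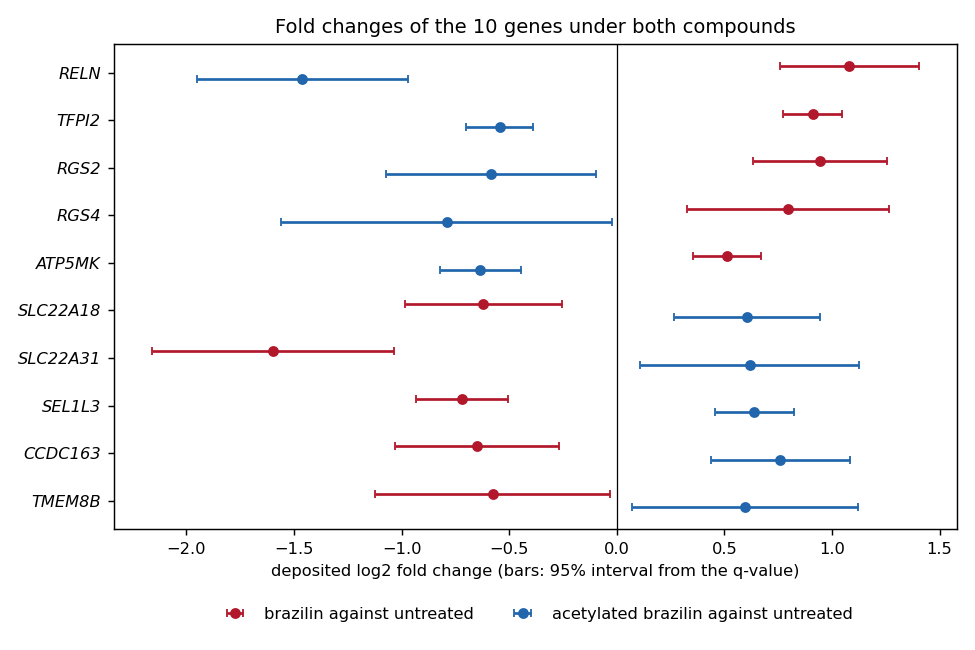
Points give the deposited log2 fold change against untreated cells for brazilin (red) and acetylated brazilin (blue), and bars the 95% interval derived from the q-value. The points of a gene lie on opposite sides of 0 because the genes were chosen for that. No interval reaches 0 because every listed q-value is under 0.05. The intervals come closest to 0 for RGS4 with acetylated brazilin (upper end -0.02) and TMEM8B with brazilin (upper end -0.03).

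The 2 genes named for the SLC22 family of organic ion transporters and listed for both compounds were lower with brazilin and higher with acetylated brazilin. SLC22A31, an orphan member of the family, had means of 2.27 FPKM in untreated cells, 0.735 FPKM with brazilin and 3.415 FPKM with acetylated brazilin. This was 32.4% of the untreated level with brazilin and 150.4% with acetylated brazilin, a 4.65-fold difference between the compounds that ranked second among the 84 shared genes. The deposited log2 fold changes were -1.60 (interval -2.16 to -1.04, q = 2.4e-08) and 0.62 (interval 0.11 to 1.13, q = 0.017), and their difference was -2.22 (interval -2.97 to -1.46). SLC22A18, a transporter gene in an imprinted region of chromosome 11, had means of 7.285 FPKM, 4.965 FPKM and 11.005 FPKM in the same order. Its deposited log2 fold changes were close to mirror images, -0.62 with brazilin (interval -0.99 to -0.26, q = 0.00084) and 0.60 with acetylated brazilin (interval 0.27 to 0.94, q = 0.00045).

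Of 26 other genes of the SLC22 family and its relatives, SLC22A15 and SLC22A3 were listed with brazilin, both lower, at 0.93 and 0.7 FPKM (log2 -0.58, interval -1.14 to -0.02) and at 4.105 and 3.095 FPKM (log2 -0.53, interval -0.83 to -0.23). These 2 are the only listed genes of the family whose direction the choice of the genes did not fix, and 52.4% of the brazilin table was lower. In the acetylated brazilin table only the 2 opposed transporter genes were listed. Of 16 other genes of the imprinted region, TSSC4 and IGF2 were listed with brazilin (31.71 to 50.285 FPKM and 0.885 to 1.48 FPKM). Both were higher, as were 47.6% of all genes in that table. SLC22A18 was lower, but its directions took part in the choice of the genes. SLC22A18, which RefSeq lists as SLC67A1, is overlapped by a noncoding gene on the opposite strand, and without strand information their reads cannot be told apart. Of the 10 genes, 6 overlap another annotated gene, the others being RELN, RGS4, ATP5MK, SEL1L3 and TMEM8B. Only ATP5MK overlaps a protein-coding gene, and the share of all genes with an overlap was not computed.

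SEL1L3 had narrow intervals in both comparisons. Its means were 6.615 FPKM in untreated cells, 4.195 FPKM with brazilin and 10.225 FPKM with acetylated brazilin. Brazilin left 63.4% of the untreated level and acetylated brazilin gave 1.55-fold that level. Log2 fold changes were deposited as -0.72 (interval -0.93 to -0.51, q = 4.7e-11) and 0.64 (interval 0.46 to 0.82, q = 9.7e-12), and the difference was -1.36 (interval -1.64 to -1.08).

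SEL1L3 was put on a list with 18 genes of the SEL1L degradation complex and its partners, as a relative of SEL1L. These 18 pass misfolded proteins from the endoplasmic reticulum to the proteasome. Of them, 9 were in the brazilin table and all 9 were lower, against 52.4% of all genes in that table. SEL1L itself went from 93.43 to 39.3 FPKM (log2 -1.37, interval -1.47 to -1.27), EDEM1, a lectin that selects misfolded glycoproteins, from 54.8 to 25.545 FPKM (log2 -1.19, interval -1.29 to -1.09), and UBE2J1, a ubiquitin-conjugating enzyme, from 46.65 to 25.93 FPKM (log2 -0.93, interval -1.05 to -0.82). DERL3, a membrane protein of the export channel, went from 3.09 to 1.455 FPKM. The median log2 fold change of these 9 was -0.69 with brazilin, where the median size of change over the table was 0.73. No change under 0.5 in size is listed, so a list of lower genes has a median fall of at least 0.5 by construction. None of the 18 was in the acetylated brazilin table, where SEL1L3 alone of the list appears.

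**Figure D3:**
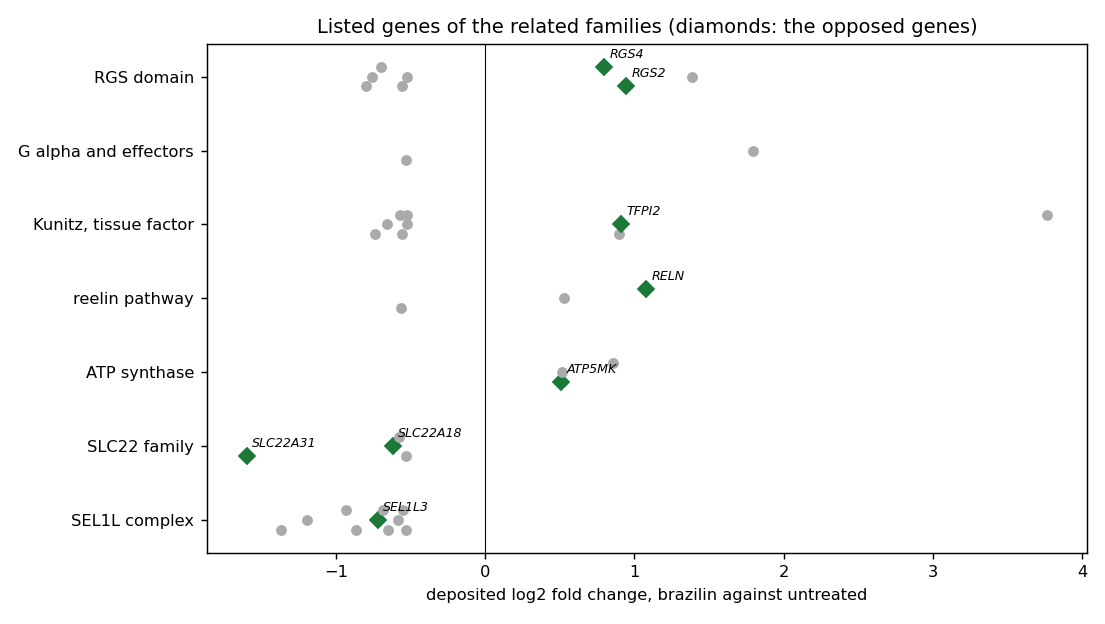
Each point is a gene of a related family that the brazilin table lists, at its deposited log2 fold change against untreated cells, and diamonds mark the opposed genes. The diamonds lie where the choice of the genes put them. Among the other genes, 9 of 9 of the SEL1L list, 5 of 6 of the RGS list and 6 of 8 of the Kunitz and tissue factor list lie on the lower side, against 52.4% of the table. So do 2 of 2 of the SLC22 list, and 1 of 2 each of the reelin list and the G alpha list. The 2 other ATP synthase genes both lie on the higher side.

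CCDC163 and TMEM8B complete the genes that were higher with acetylated brazilin. CCDC163 had means of 4.225 FPKM untreated, 2.88 FPKM with brazilin and 7.205 FPKM with acetylated brazilin, and its acetylated change was the largest of this direction, 1.71-fold. The deposited log2 fold changes were -0.65 (interval -1.03 to -0.27, q = 0.00080) and 0.76 (interval 0.44 to 1.08, q = 4.2e-06). None of 7 other genes at its locus that were looked up, among them its neighbours MMACHC and TESK2, was in any table. The promoter of CCDC163, at chr1:45500024-45500323 on the minus strand, is shown because it is the only other one of the 10 with a match to the AP-1 motif, beside TFPI2.
CCDC163: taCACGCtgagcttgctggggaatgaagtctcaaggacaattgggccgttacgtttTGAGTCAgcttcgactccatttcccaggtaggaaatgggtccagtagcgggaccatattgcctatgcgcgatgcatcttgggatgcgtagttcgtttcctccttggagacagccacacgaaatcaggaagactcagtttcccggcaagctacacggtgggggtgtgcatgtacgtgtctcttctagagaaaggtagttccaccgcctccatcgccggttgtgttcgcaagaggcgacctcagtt

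TMEM8B had the smallest difference between the compounds by the ratio of FPKM means, 1.85-fold, while by the deposited log2 fold changes that of ATP5MK was smaller (1.14 for ATP5MK and -1.17 for TMEM8B). Its means were 1.08 FPKM in untreated cells, 0.89 FPKM with brazilin and 1.645 FPKM with acetylated brazilin. The deposited log2 fold changes were -0.58 (interval -1.12 to -0.03, q = 0.038) and 0.60 (interval 0.07 to 1.12, q = 0.026), while the log2 ratio of FPKM means with brazilin was only -0.28. Of the 10 genes it thus lies nearest to the edge of the rule, with ATP5MK next at 0.39 with brazilin. On the same-sign side the nearest genes were TXNIP and PDK4, whose smaller log2 ratios were -0.43 and -0.45, both with brazilin. Neither of the other genes of the TMEM8 family was listed for any compound.

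As a set the 10 genes were of moderate abundance and mostly of moderate change. Untreated means ran from 0.545 to 326.53 FPKM with a median of 5.165 FPKM, and 4 of the 10 stayed under 5 FPKM in all 3 groups. The deposited log2 fold change reached 1 in size in 2 genes with brazilin, RELN and SLC22A31, and in RELN alone with acetylated brazilin. In 6 of the 10 the change with brazilin was the larger of the pair, as it was in most of the 74 shared genes with the same sign. By the ratio of FPKM means the compounds differed 1.85-fold to 6.18-fold, with a median of 2.70-fold. The difference between compounds was over 1 on the log2 scale in 9 of the 10 genes, and in 10 of the 74 shared genes with the same sign, which follows in part from the choice of the genes. None of the 10 was among the 11 genes of the methylated brazilin table, so that compound has no value for them, and their level with it is not shown to be unchanged.

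**Figure D4:**
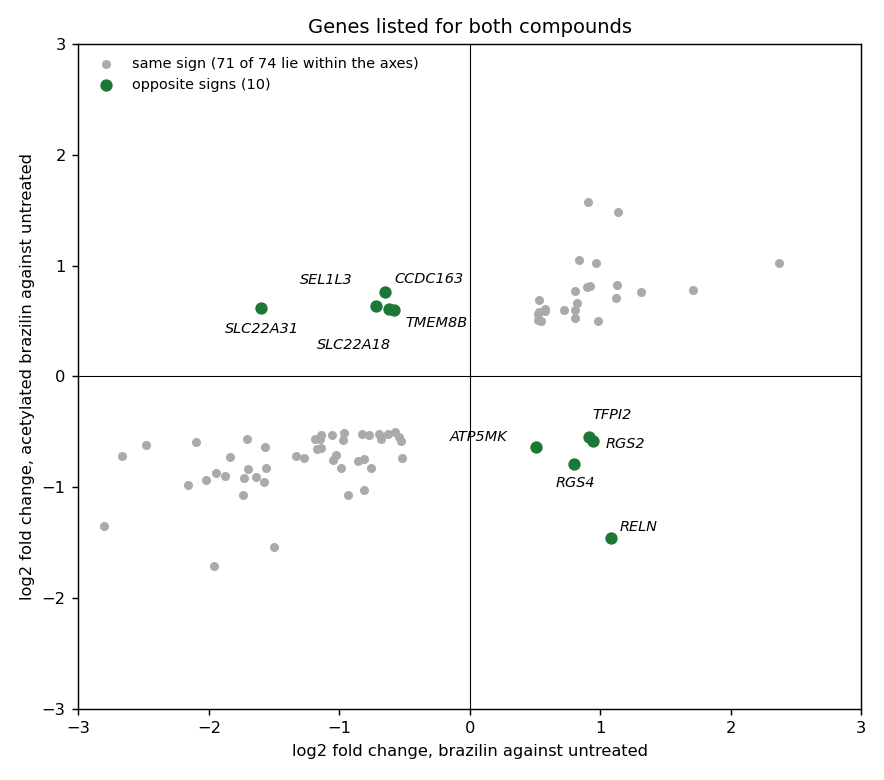
Each point is a gene listed for both compounds, at its deposited log2 fold change with brazilin (horizontal) and with acetylated brazilin (vertical), and green marks the 10 opposed genes. The 5 genes at the lower right lie between 0.51 and 1.08 with brazilin, the 5 at the upper left between 0.60 and 0.76 with acetylated brazilin, and the axes leave out 3 same-sign genes with larger changes. Both axes share the untreated samples.

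The nearest genes outside the set moved the same way with both compounds. Over the pair of deposited log2 fold changes, the nearest of the 74 same-sign genes were at distances of 1.03 to 1.76. A distance of at least 1 follows from the tables, which list no log2 fold change under 0.5 in size. TXNIP, an inhibitor of thioredoxin, was lower with both compounds (224.345 FPKM untreated, 166.9 FPKM with brazilin and 136.34 FPKM with acetylated brazilin). C20orf27 was nearest to TFPI2, RGS2 and RGS4 and was higher with both, at 28.66, 59.945 and 40.655 FPKM. FAM3C was nearest to SEL1L3, SLC22A18 and TMEM8B and was lower with both, at 109.94, 78.615 and 78.4 FPKM. TCP11L2 was nearest to SLC22A31, at 17.21, 5.615 and 12.075 FPKM, and PVRIG to CCDC163, at 3.725, 5.715 and 6.05 FPKM. Within the set the closest pairs were SLC22A18 and TMEM8B, at 0.04, and TFPI2 and RGS2, at 0.05.

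The sets of opposite direction differed in the median base composition of their transcripts, which the rule did not use. Whether their ranges overlapped depended on the transcripts taken and on the part of the transcript. In the longest protein-coding transcript of GENCODE release 29, the 5 genes higher with brazilin had 39.8% to 47.2% G and C, with a median of 41.6%. The 5 genes higher with acetylated brazilin had 47.5% to 69.0%, with a median of 52.9%, so the ranges did not overlap but met at ATP5MK and SEL1L3. With the median over all coding transcripts of a gene the ranges overlapped, at 41.5% to 47.0% and 45.8% to 67.8%, because SEL1L3 fell to 45.8%. In the coding sequence alone they overlapped too, at 37.9% to 49.1% and 48.6% to 69.8%. SLC22A31, at 69.0%, was richer in G and C than 99.1% of the genes in the brazilin table. In the brazilin table as a whole the higher genes were the richer ones, with medians of 54.8% for higher and 44.9% for lower genes, and the acetylated brazilin table showed 59.9% and 43.0%. By their set medians, the opposed genes ran with the composition of the acetylated brazilin table and against that of the brazilin table. Both tables have the same trend, so the opposite signs force such a contrast once the sets differ in composition. What part base composition has in these measurements was not tested. Transcript lengths of the sets overlapped widely, from 882 to 11571 bases and from 1526 to 14112 bases.

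**Figure D5:**
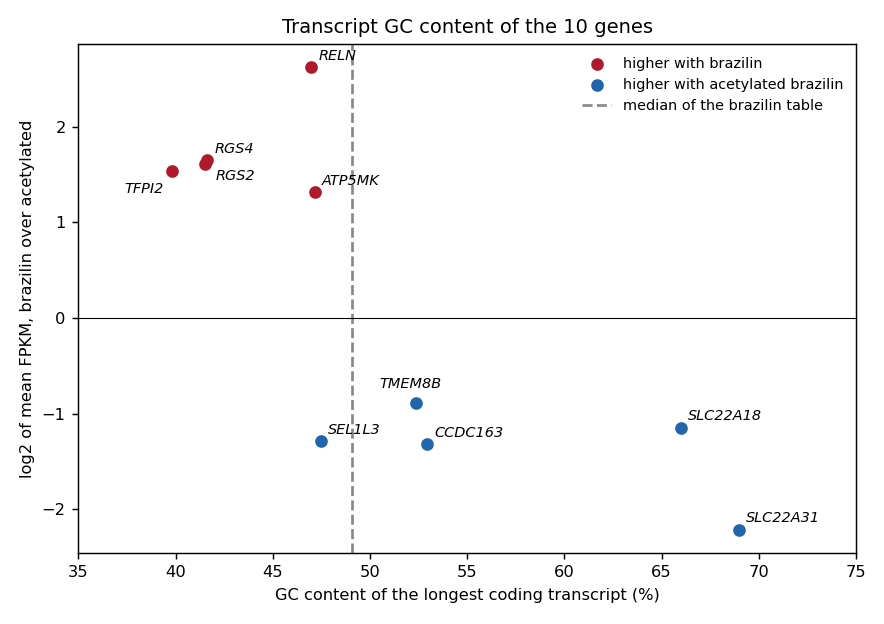
Points give the share of G and C in the longest coding transcript of each gene (horizontal) and the log2 ratio of mean FPKM with brazilin over acetylated brazilin (vertical), and the dashed line is the median of the brazilin table, 49.1%. The genes higher with brazilin (red) lie left of that line, and 4 of the 5 genes higher with acetylated brazilin (blue) lie right of it.

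Matches to promoter motifs occurred in genes of both directions. The windows of 250 bases before to 50 bases after the start, 1 per gene from RefSeq's GRCh38.p14 table, were searched on both strands for 5 motifs and matched all 10 genes by ID. The AP-1 motif TGANTCA occurred in 2 of the 10, TFPI2 and CCDC163, which moved in opposite directions, and in 7.71% of all 35116 promoters. The core of the xenobiotic response element, GCGTG, occurred in 6 of the 10, RELN, RGS2, RGS4, ATP5MK, CCDC163 and TMEM8B, and in 36.5% of all promoters. The cyclic AMP response element TGACGTCA, the antioxidant response element core TGACNNNGC and the TATA box TATAAA had no match, against 1.85%, 13.3% and 11.5% of all promoters. These motifs share no overlapping match in the 10 windows. A match describes letters in the window and not a bound site.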

How the data were processed

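RNA was sequenced from 8 samples, 2 in each of 4 groups. Per the labels' protocols, BGI Americas made and sequenced the libraries. DESeq2, RSEM, Bowtie, StringTie and HISAT are named, without version or role, in the submitters' processing notes, as are GRCh38, hg38 and the mouse build mm10. Labels of treated samples open with the word control, but their titles name the treatment, which set the groups. Per the file headers, the authors deposited, for each listed gene, mean FPKM per group with the log2 fold change and its q-value. Deposited q-values are under 0.05 and absolute log2 fold changes at least 0.5, the apparent criteria. FPKM values step by 0.005 with a lowest value of 0.01. No value per sample was used, and depth is unknown.

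From these, log2 ratios of FPKM means were computed and tables joined on gene ID with pandas 2.3.3. The standard error was the absolute fold change over the normal quantile of the q-value read as a two-sided p-value, an upper bound for an unshrunken Wald test. This was added after seeing the files. It was tested only on simulated normal estimates that met its assumptions, and not on fits with 2 samples per group. For differences the errors were summed in quadrature. No replicate test was possible. The members and the 10 gene lists (198 entries, all matched to RefSeq GRCh38.p14) were chosen with earlier results of these data known. Named genes are the members, up to 4 listed genes of each list with the largest fold change, and each member's nearest same-sign gene. TXNIP and PDK4 at the edge of the rule, and further list genes, were named after their values were seen. Transcripts are from GENCODE release 29, and copies were searched with BLAST+ 2.17.0 on coding sequences, at 95% identity over 80% of the length.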

Additional observations from a re-analysis of the deposited data

How the results depend on the processing

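The count of 10 opposed genes stayed at 10 with the sign of the deposited log2 fold change, with genes matched by symbol and with a minimum of 1 FPKM in the highest group. It was 6 of 64 shared genes with q under 0.01 in both tables, because SLC22A31, RGS2, RGS4 and TMEM8B have a q-value above 0.01 with at least 1 compound, and 1 of 10, RELN, with an absolute log2 fold change of at least 1 in both. The median absolute log2 difference between the compounds over the 10 genes was 1.43 by the ratio of means, and 1.10 to 1.503 over the alternatives. With a pseudocount of 1 FPKM the difference of RELN went from 2.63 to 0.90 and that of SLC22A31 from -2.22 to -1.35, and the other 8 genes moved by less than the half-width of their interval. No paired analysis was possible because the columns hold group means with no replicate number. For the same reason no replicate could be left out. Depth is unknown, so the precision of genes with means under 1 FPKM (RELN, RGS4, SLC22A31 and TMEM8B in at least 1 group) cannot be given from counts.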

Other observations

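Within 100 kb of the 10 genes RefSeq places 94 other genes, 44 of them protein-coding, and 3 of the 94 were in the brazilin or the acetylated brazilin table. PDCD11, a ribosome assembly gene that starts 151 bases from ATP5MK on the opposite strand, was higher with brazilin, like ATP5MK (16.4 to 27.875 FPKM, log2 0.67). BET1, a vesicle transport gene 72009 bases from TFPI2, was lower with brazilin (40.175 to 27.78 FPKM, log2 -0.63), unlike TFPI2. RGS5, described beside RGS4, is the third. None of these 3 genes was in the acetylated brazilin table.

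The deposited fold change and the ratio of FPKM means differed most in 2 of the opposed genes. For TMEM8B with brazilin the ratio was 0.30 above the deposited value, and for ATP5MK with acetylated brazilin 0.29 below it. For ATP5MK with brazilin the ratio was 0.12 below the deposited value. Over the brazilin and acetylated brazilin tables the median of this gap was 0.09 and 0.01, and 6.62% and 3.11% of genes lay more than 0.2 from that median. Both values of ATP5MK and that of TMEM8B with brazilin are among these. The cause was not tested.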
